A study of Homo sapiens with 115 samples.

Results

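The 55 genes described here encode the machinery that copies DNA and the enzymes that supply its building blocks. They were taken by name from the 43386 gene entries of a count table of single HCT116 cells, a human colorectal cancer cell line, and all 55 were found once each. The rule lists them by name and sets no threshold on a measured value, but it was made with earlier results of these data known. By function they were divided into origin licensing (15 genes), helicase activation (6), polymerases and primase (12), clamp and clamp loader (6), Okazaki fragment and single-strand binding (6), fork protection (3), nucleotide supply (4), and chromatin and methylation behind the fork (3).

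The cells followed cultures given 8 Gy of ionising radiation, in which giant radiation-tolerant persister (RTP) cells later released small progeny by budding. Each library came from 1 cell that was picked by pipette and sequenced over the full length of its cDNA, with no molecular identifiers. The stages were unirradiated cells on day 0, named [N] (6 p53+/+ and 7 p53-/- cells), pre-budding RTP on day 7, [P] (6 and 11), budding RTP on day 10, [B] (28 and 8), newly budded progeny on day 10, [S] (21 and 9), and repopulated cells on day 30, [R] (11 and 8). The labels write 8 Gy for [N] too, while the methods of the study call these cells untreated, and they were taken as unirradiated. By the labels 72 cells were p53+/+ and 43 were p53-/-, while the text of the study divides the same total slightly differently between the lines, and the labels were used for every sum and line comparison. Both HCT116 lines were products of homologous recombination, and each genotype is represented by 1 line.

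DNA replication begins with licensing, in which the origin recognition complex (ORC), CDC6 and CDT1 load the ring-shaped MCM2 to MCM7 helicase onto origins. MCM10, CDC45 and the GINS complex then turn the loaded rings into moving helicases, polymerases alpha, delta and epsilon copy the strands, and the PCNA clamp, set in place by the RFC loader, holds the polymerases to DNA. Ribonucleotide reductase (RRM1 and RRM2), thymidylate synthase (TYMS) and thymidine kinase (TK1) supply the deoxynucleotides, and many of these genes are known to be transcribed in late G1 and S phase under E2F factors. Which cell cycle phase each picked cell was in was not measured.

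A cell had between 4056329 and 100173192 counts (median 34238237), and levels are given as CPM, a cell's counts scaled to the same total. The labelled cell type was checked against 5 epithelial genes, whose summed level had a median of 8463 CPM and never fell below 1573 CPM, while 10 markers of other cell types summed to a median of 11.9 CPM (0 to 127 CPM), 8 of the 10 with a median of 0. Genotypes are named by the labels throughout. Mitochondrial rRNA took a median of 1.06% of counts for [N], 3.13% for [P], 4.58% for [B], 3.74% for [S] and 2.24% for [R], and its part in the values below was not tested. Cell names fall under 19 number prefixes whose meaning the labels do not give. [N] shares a prefix only with [P], and [R] with no other stage, so stage and prefix cannot be told apart where [B] or [S] is set against [N], nor wherever [R] is compared.

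Budding RTP held the lowest levels of these genes. Summed over the 55 genes, the level per cell was 6916, 8943 and 10214 CPM (lowest, median and highest) in [N], 1701, 6309 and 12591 CPM in [P], 857, 2838 and 9065 CPM in [B], 1399, 4822 and 9912 CPM in [S], and 2200, 9271 and 14694 CPM in [R]. The median of [N] was 3.15 times that of [B] and 0.965 times that of [R]. Below the lowest [N] cell of their own line were 34 of 36 [B] cells, 22 of 30 [S] cells, 10 of 17 [P] cells and 4 of 19 [R] cells. The ranges of all stages overlapped, since 2 [B] cells reached [N] levels.

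**Figure D1:**
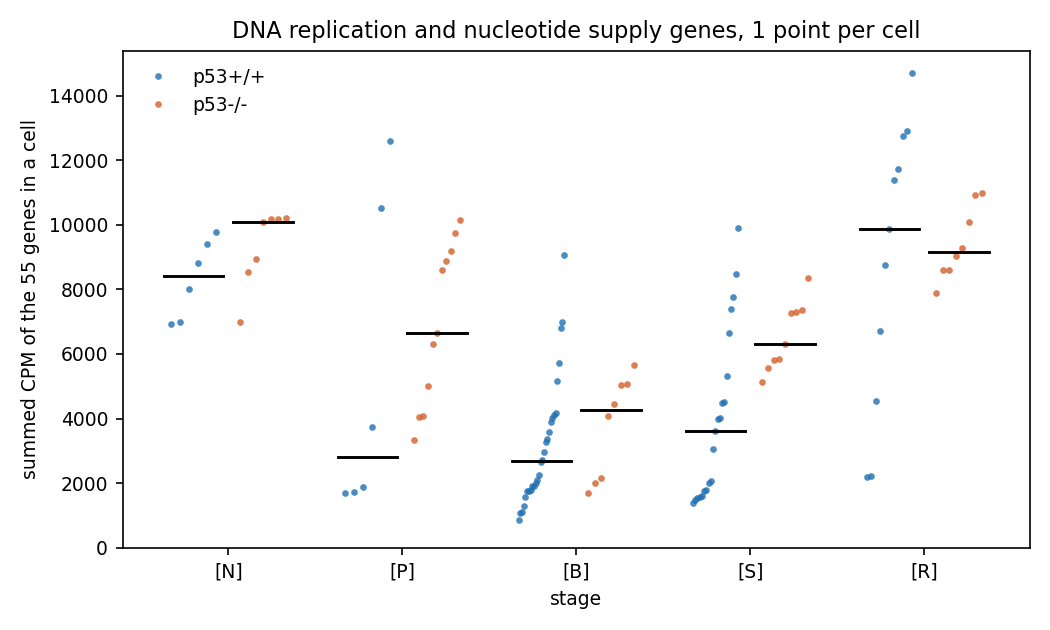
Summed CPM of the 55 genes in each cell (y axis, linear) by stage (x axis), with p53+/+ cells in blue and p53-/- cells in orange. Each point is 1 cell and each bar is the median of a stage and line, and the [N] medians of 8419 and 10072 CPM stand above the [B] medians of 2683 and 4277 CPM.

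Both lines showed this order of [N] and [B]. In the p53+/+ line the sum was 6916, 8419 and 9789 CPM in [N] and 857, 2683 and 9065 CPM in [B], and in the p53-/- line it was 6991, 10072 and 10214 CPM in [N] and 1692, 4277 and 5659 CPM in [B]. All 8 p53-/- [B] cells and 26 of 28 p53+/+ [B] cells lay below every [N] cell of their line. The same held for 17 of 21 p53+/+ and 5 of 9 p53-/- [S] cells. It held for 4 of 11 p53+/+ and 0 of 8 p53-/- [R] cells. The [P] cells of the p53+/+ line fell far apart, with 1701, 1714, 1868, 3732, 10534 and 12591 CPM. The highest 2 of these 6 cells also held the most MKI67, a proliferation marker chosen after its values were seen (507 and 513 CPM against 0.624 to 71.4 CPM in the other 4), and the highest was the most deeply sequenced cell of all, so that it weighs heavily in the [P] sum used for testing. The [P] cells of the p53-/- line ran from 3343 to 10136 CPM with a median of 6643 CPM.

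The groups differed in how far they were apart between [N] and [B]. The ratio of the [N] median to the [B] median was 5.08 for helicase activation (490 against 96.6 CPM), 4.80 for chromatin and methylation behind the fork (246 against 51.3 CPM), 4.76 for nucleotide supply (2220 against 467 CPM) and 4.24 for fork protection (294 against 69.2 CPM). It was 3.43 for licensing (2423 against 706 CPM), 2.86 for Okazaki fragment and single-strand binding (1055 against 369 CPM), 2.61 for clamp and clamp loader (1371 against 524 CPM), and 1.66 for polymerases and primase (894 against 538 CPM). Nucleotide supply was the group in which all 36 [B] cells lay below the lowest [N] cell of their line, against 20 of 36 for polymerases and primase. These medians take both lines together, and the lines made up unlike shares of the [N] and [B] cells. Within the lines the order differed. The ratio was 5.56 in the p53+/+ and 2.71 in the p53-/- line for helicase activation, and 3.25 and 3.13 for licensing. Licensing was highest in the p53-/- line, and polymerases and primase were lowest in both, at 1.51 and 1.61. Whether the groups differ from each other was not tested.

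**Figure D2:**
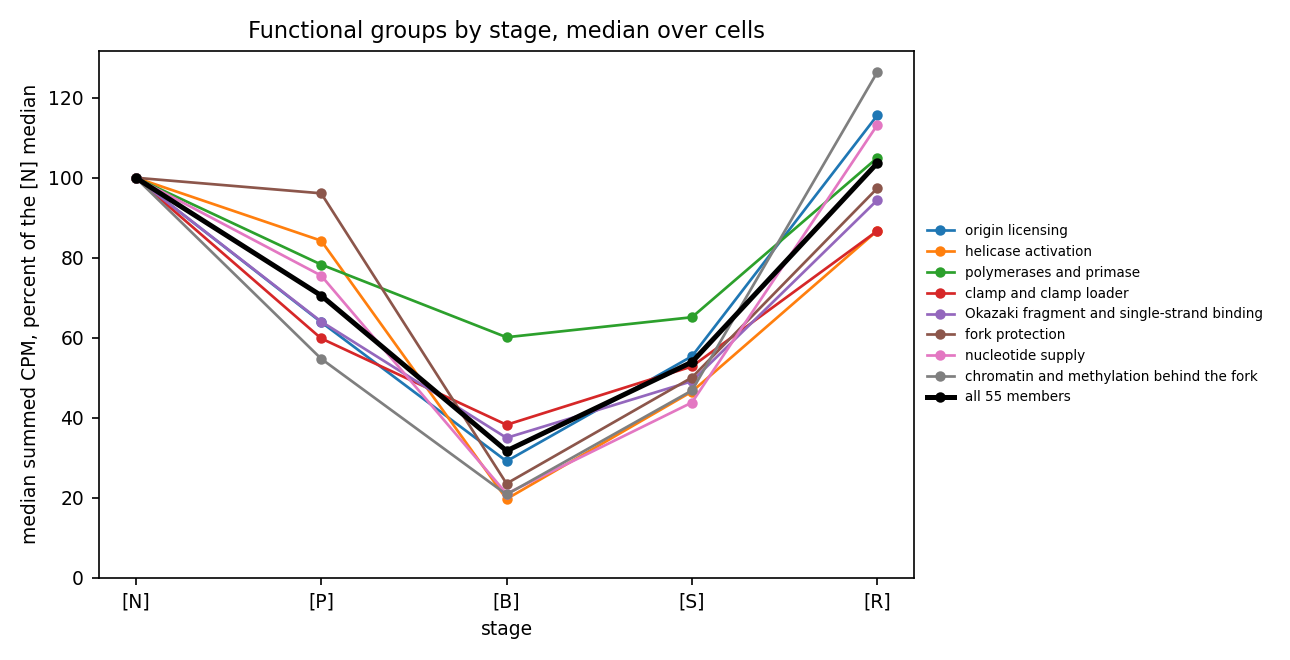
Median over cells of the summed CPM of each functional group, as a percentage of its [N] median (y axis), by stage (x axis), both lines together and without error bars. With the lines together each group is at its lowest in [B] (helicase activation at 96.6 of 490 CPM), where polymerases and primase stay nearest to their [N] level (538 of 894 CPM). In the p53+/+ line alone, licensing and chromatin were lower in [P] (648 and 30.9 CPM) than in [B] (669 and 39.7 CPM). Polymerases and primase were lower there in [S] (509 CPM) than in [B] (522 CPM).

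Set against gene length, as CPM per kilobase of transcript, the genes spanned a wide range in [N]. TK1 stood highest at 278, 509 and 728 CPM per kilobase, followed by PCNA at 242, 492.8 and 738, whose range overlapped that of TK1 almost wholly, and RRM2 at 170, 266 and 412. The lowest 2 genes were POLE, the catalytic subunit of polymerase epsilon, at 1.16, 2.88 and 7.30 CPM per kilobase, and POLA1, the catalytic subunit of polymerase alpha, at 2.53, 3.34 and 7.40, and these ranges also overlapped. In [B] RRM2 came 8th of the 55 by median, at 42.0 CPM per kilobase. POLD4 moved from 48th at 9.16 CPM per kilobase in [N] to 9th at 39.2 in [B].

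To compare the stages, the raw counts of a line's cells were added up within a stage, so that n = 2 sums per stage, and the 10 sums were fitted in edgeR with TMM scaling, a robust quasi-likelihood test and Benjamini-Hochberg adjustment over the 19894 genes tested. A gene was called at an adjusted p under 0.05. Log2 fold changes are given with their standard error (SE), and p-values rest on the spread between the lines only. In [B] versus [N], 20 of the 55 genes fell, where 0.452% of all genes were called lower, and 1 rose, where 0.206% were called higher. The median log2 fold change of the 55 genes was -1.58, with 54 of 55 below 0, against 0.20 over all genes tested, and it was -1.68 between the p53+/+ sums and -1.55 between the p53-/- sums. By the labels each line pairs its [N] and [B] sums, and with the line as a block 33 genes were called lower (2.20% of all genes) and 1 higher (1.20% of all genes). DESeq2 called 39 lower (5.61% of genes) and 1 higher (6.10%), and at an unadjusted p under 0.05 edgeR had 44 lower (9.16%) and 1 higher (9.37%). The number of calls was 6 lower without the 3 [N] cells of name prefix 1115 (0.261% of all genes called in either direction), 8 with scaling by library size alone (0.362%), 10 with cells thinned to equal totals (0.372%), and 0 with any of the 4 sums left out, while all 20 genes stayed lower in each of these fits.

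**Figure D3:**
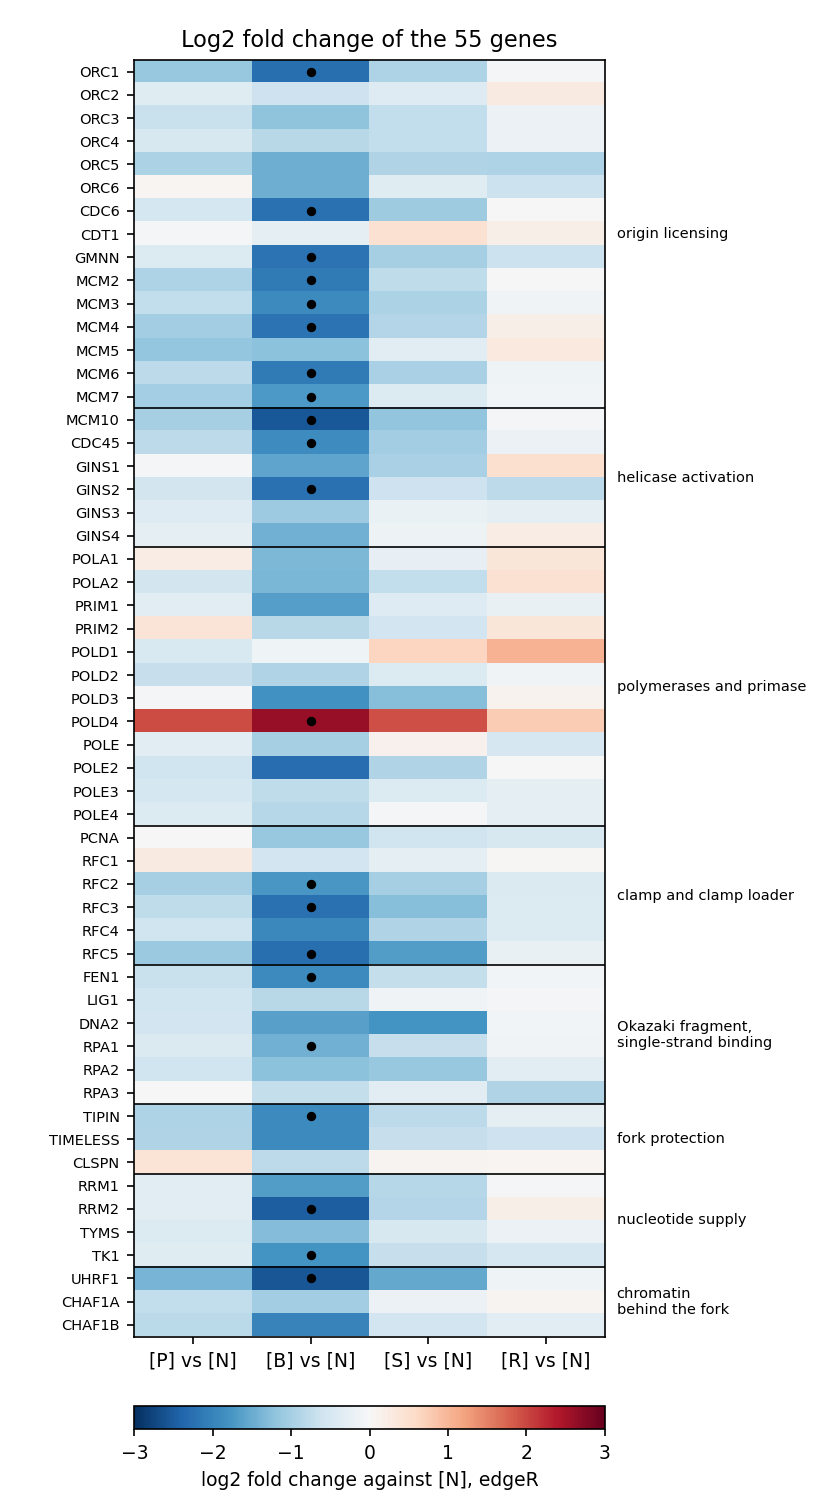
Log2 fold change against [N] from edgeR (color, from -3 in blue to 3 in red) of each of the 55 genes (y axis, by functional group) in the [P], [B], [S] and [R] sums (x axis). A black dot marks a call at an adjusted p under 0.05, and the 21 dots, 20 lower and POLD4 higher, all lie in [B] versus [N].

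Licensing genes made up 8 of the 20 that fell. Of the replicative helicase, which unwinds the double strand, 5 of 6 subunits were called, with log2 fold changes of -2.22 (SE 0.29, adjusted p = 0.0169 from edgeR) for MCM4, -2.13 for MCM6, -2.11 for MCM2, -1.92 for MCM3 and -1.71 for MCM7. MCM4 was at 51.7, 237 and 458 CPM in [N] cells (lowest, median and highest), 7.02, 122 and 341 CPM in [P], 0.477, 51.8 and 246 CPM in [B], 1.48, 92.5 and 488 CPM in [S] and 60.7, 315 and 592 CPM in [R]. Its [N] and [B] ranges overlapped, with 22 of 36 [B] cells below the lowest [N] cell of their line, and its sums were 243 and 289 CPM in [N] against 49.1 and 75.6 CPM in [B] (p53+/+ and p53-/-). The MCM5 subunit was at -1.23 (SE 0.28, adjusted p = 0.0759) and was not called.

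Of the genes that load the MCM ring, 2 fell. CDC6, which works with ORC to load the ring, fell by 2.23 on the log2 scale (SE 0.34, adjusted p = 0.0294 from edgeR), from 192 CPM in the median [N] cell to 31.5 CPM in the median [B] cell. ORC1, the largest subunit of ORC and the subunit whose level follows the cell cycle, fell by 2.25 (SE 0.41, adjusted p = 0.0462), and it had no count in 7 of 36 [B] cells and in none of the 13 [N] cells. The other ORC subunits were not called, and lay between -1.48 (ORC6) and -0.63 (ORC2). GMNN, geminin, which binds and inhibits CDT1, fell by 2.22 (SE 0.33, adjusted p = 0.0253). CDT1 itself was at -0.29 (SE 0.49, adjusted p = 0.815), with sums of 43.3 and 63.5 CPM in [N] and 29.0 and 67.8 CPM in [B].

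All 6 helicase activation genes were below 0, and 3 fell. MCM10 fell by 2.53 on the log2 scale (SE 0.43, adjusted p = 0.0398 from edgeR) and CDC45 by 1.88 (SE 0.30, adjusted p = 0.0341). GINS2, a GINS subunit, was at 162, 219 and 320 CPM in [N] cells and at 0, 43.7 and 280 CPM in [B] cells and fell by 2.25 (SE 0.30, adjusted p = 0.0194), by 2.23 in the p53+/+ and 2.27 in the p53-/- line. The other GINS subunits were at -1.58 (GINS1), -1.43 (GINS4) and -1.10 (GINS3) and were not called.

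Of the clamp and its loader, 3 of 6 genes fell. RFC5, RFC3 and RFC2, subunits of the loader, fell by 2.27 (SE 0.28, adjusted p = 0.0142 from edgeR), 2.23 (SE 0.29, adjusted p = 0.0169) and 1.74 (SE 0.29, adjusted p = 0.0357). RFC5 had the smallest adjusted p of the 55 genes, with sums of 160 and 183 CPM in [N] against 33.0 and 44.5 CPM in [B]. RFC3 and RFC5 were also called in every alternative fit that left out no whole sum. RFC4 was at -1.93 (adjusted p = 0.0562), and RFC1, the large subunit, at -0.59 (adjusted p = 0.501). PCNA, the clamp, was at -1.13 (SE 0.34, adjusted p = 0.130). It was at 309, 629 and 942 CPM in [N] cells and 60.3, 274 and 837 CPM in [B] cells, and 22 of 36 [B] cells lay below the lowest [N] cell of their line.

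Among the polymerases no gene was called lower, and the largest differences were in accessory subunits. POLE2, the second subunit of polymerase epsilon, was at -2.28 (SE 0.46, adjusted p = 0.0568 from edgeR) and POLD3, an accessory subunit of polymerase delta, at -1.82 (SE 0.37, adjusted p = 0.0590). PRIM1, the catalytic subunit of primase, was at -1.65 (adjusted p = 0.0692). The catalytic subunits of the polymerases were at -1.34 (POLA1), -1.005 (POLE) and -0.13 (POLD1), and POLE3 and POLE4 at -0.76 and -0.86. Of the 12 genes, 7 were lower at an unadjusted p under 0.05.

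POLD4, the smallest subunit of polymerase delta, was the gene that rose. It was at 7.31, 15.5 and 24.1 CPM in [N] cells, 19.04, 59.7 and 130 CPM in [P], 12.2, 66.3 and 318 CPM in [B], 8.18, 50.5 and 237 CPM in [S] and 5.64, 22.3 and 97.5 CPM in [R]. Above the highest [N] cell of their own line were 15 of 17 [P] cells, 35 of 36 [B] cells, 26 of 30 [S] cells and 9 of 19 [R] cells. In [B] versus [N] it rose by 2.61 on the log2 scale (SE 0.46, adjusted p = 0.0421 from edgeR), by 2.36 in the p53+/+ and 2.88 in the p53-/- line. It was not called with thinned cells, without the 3 [N] cells of prefix 1115 or with any sum left out. Without POLD4, the other 11 genes of its group had a median summed level of 887 CPM in [N] and 393 CPM in [B]. The other subunits of polymerase delta, POLD1, POLD2 and POLD3, were at -0.13, -0.91 and -1.82 in this comparison.

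At the lagging strand, FEN1, the flap nuclease that trims Okazaki fragments, fell by 1.92 on the log2 scale (SE 0.34, adjusted p = 0.0421 from edgeR), from 341 CPM in the median [N] cell to 62.2 CPM in the median [B] cell. RPA1, the large subunit of the single-strand binding complex RPA, fell by 1.45 (SE 0.27, adjusted p = 0.0462), and RPA2 and RPA3 were at -1.23 and -0.72. LIG1, the ligase that seals the fragments, was at -0.84 (adjusted p = 0.159). DNA2, a nuclease and helicase, was at -1.64 (adjusted p = 0.150) and had no count in 8 of 36 [B] cells and 9 of 30 [S] cells.

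Of the fork protection genes TIPIN fell by 1.90 (SE 0.33, adjusted p = 0.0411 from edgeR), and its partner TIMELESS was at the same log2 fold change of -1.90 with a larger error (SE 0.75, adjusted p = 0.218). CLSPN, claspin, which links the fork to the checkpoint kinase, was at -0.79 (SE 0.66, adjusted p = 0.582), with sums of 79.7 and 99.8 CPM in [N] against 21.98 and 95.5 CPM in [B]. Per kilobase of transcript it was at 5.63, 10.97 and 16.4 CPM in [N] cells and 0, 1.87 and 67.7 CPM in [B] cells. The p53-/- [B] sum includes 1 cell whose fork protection genes summed to 732.9 CPM, where the next of the 8 was at 194.8 CPM. Behind the fork, UHRF1, which recognises hemimethylated DNA, fell by 2.57 (SE 0.36, adjusted p = 0.0219), the most on the log2 scale of the 20. The subunits of the chromatin assembly factor CAF-1, CHAF1B and CHAF1A, were at -2.01 (adjusted p = 0.105) and -1.04 (adjusted p = 0.277).

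In nucleotide supply RRM2 and TK1 fell. RRM2, the small subunit of ribonucleotide reductase, whose level limits the enzyme in S phase, was at 555, 868 and 1342 CPM in [N] cells, 2.79, 641 and 1701 CPM in [P], 0, 137 and 509 CPM in [B], 1.39, 275 and 1195 CPM in [S] and 24.8, 1216 and 2307 CPM in [R]. The highest [B] cell thus stood below the lowest [N] cell, and all 36 [B] cells, 25 of 30 [S] cells, 10 of 17 [P] cells and 3 of 19 [R] cells lay below the lowest [N] cell of their line. RRM2 fell by 2.47 on the log2 scale in [B] versus [N] (SE 0.43, adjusted p = 0.0421 from edgeR), with sums of 779 and 1036 CPM in [N] against 114.6 and 246 CPM in [B]. TK1, which salvages thymidine, was at 398, 728 and 1042 CPM in [N] cells, 0, 154 and 784 CPM in [B], 1.35, 342 and 1224 CPM in [S] and 70.2, 499 and 1242 CPM in [R], and fell by 1.80 in [B] versus [N] (SE 0.27, adjusted p = 0.0253). Its [N] and [B] ranges overlapped, with 29 of 36 [B] cells below the lowest [N] cell of their line. RRM1, the large reductase subunit, was at -1.68 (adjusted p = 0.0639) and TYMS at -1.30 (adjusted p = 0.0723). TYMS lies opposite TYMSOS, which had median levels of 3.32 CPM in [N] and 6.98 CPM in [B] against 283 and 98.1 CPM for TYMS, and whether counting used the strand was not stated.

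**Figure D4:**
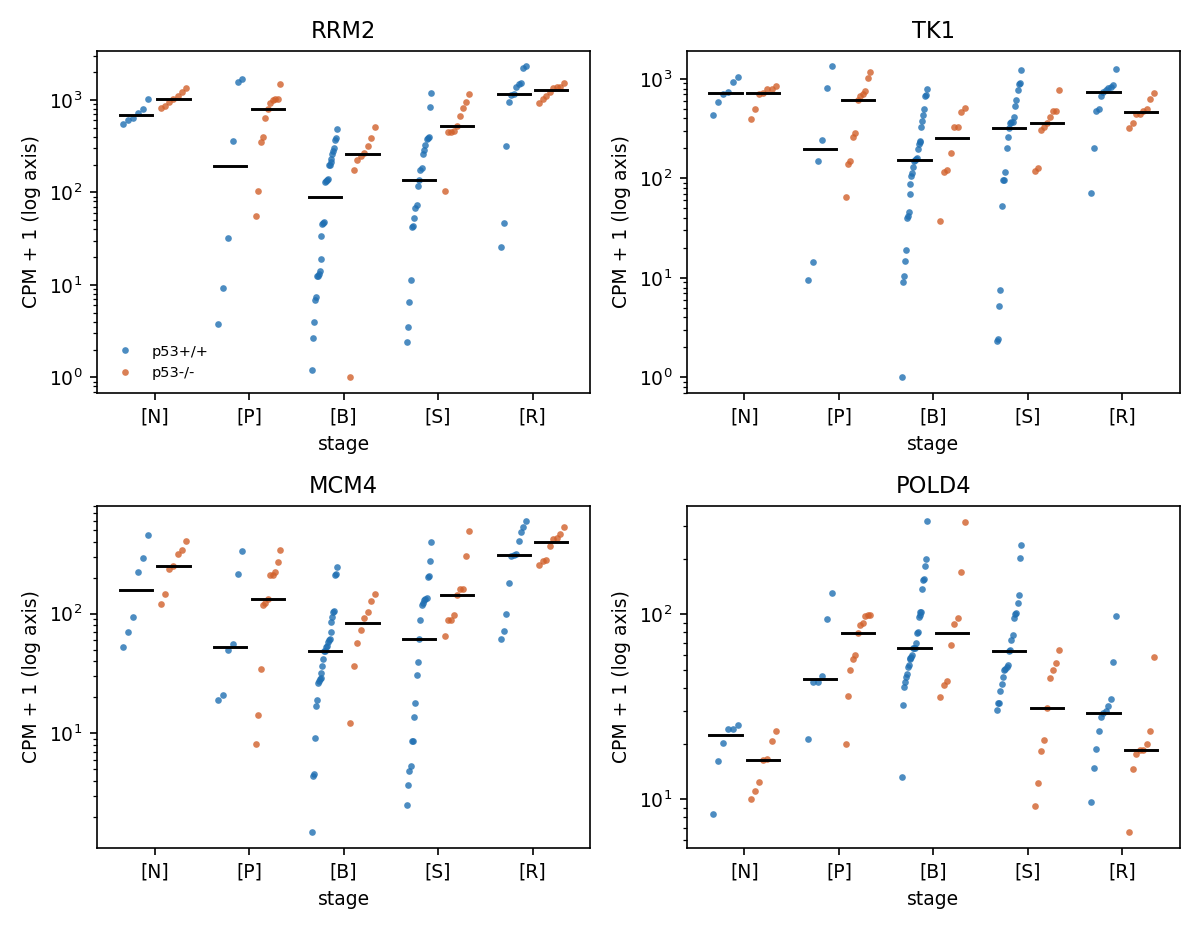
CPM + 1 (y axes, log scale) of RRM2, TK1, MCM4 and POLD4 by stage (x axes), with 1 point per cell, p53+/+ in blue, p53-/- in orange, and bars for the medians of a stage and line. RRM2, TK1 and MCM4 have their lowest medians in [B], with 137 CPM for RRM2 over both lines, while POLD4 has 66.3 CPM there against 15.5 CPM in [N].

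Other genes of the pathway, which are not among the 55, were read from the same fit. Of 19 genes of S-phase entry control 3 fell, namely CCNE2, cyclin E2, by 3.31 (adjusted p = 0.0155 from edgeR), DBF4, the activator of the CDC7 kinase, by 1.99 (adjusted p = 0.0452), and CCNA2, cyclin A2, by 2.53 (adjusted p = 0.0457), and the median of the list was -1.04. Of 18 other replisome factors 3 fell, namely MCMBP, DONSON and WDHD1, and the median was -1.21. Of 14 other genes of nucleotide metabolism 1 fell, DCK, deoxycytidine kinase, by 1.82 (adjusted p = 0.0237), and the median was -0.42. Of 6 other genes of chromatin assembly none was called by edgeR, with 6 lower at an unadjusted p under 0.05 and a median of -1.31, and the smallest adjusted p was 0.0503 for ASF1B.

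In the steps on either side of budding the median differences were smaller than in [B] versus [N]. In [P] versus [N] no member was called by edgeR, with 16 lower (4.90% of all genes) and 1 higher (7.01%) at p under 0.05 before adjustment, while DESeq2 called 6 lower (1.35% of genes) and 1 higher (2.89%). The median was -0.55, with 48 of 55 genes below 0, against 0.15 over all genes. RFC5 was at -1.12 (SE 0.27), MCM5 at -1.17 (SE 0.28), UHRF1 at -1.40 (SE 0.35) and POLD4 at 1.95 (SE 0.45), each with an adjusted p of 0.284 from edgeR. Licensing held 9 of the 16 genes at an unadjusted p under 0.05, and nucleotide supply none of its 4, with TK1 at -0.36 and TYMS at -0.42. PCNA was at -0.01 in [P] versus [N] (SE 0.34), with sums of 624.9 and 549 CPM in [N] and 660 and 633 CPM in [P]. Over single cells PCNA was at 152, 428 and 1546 CPM in [P] (lowest, median and highest) against 309, 629 and 942 CPM in [N]. The median cell was thus lower in [P], while the sums weigh deeply sequenced cells more. Within name prefix 1115, the prefix that holds [N] and [P] cells, the sum over the 55 genes was 10072 and 10184 CPM in 2 [N] cells against 6643, 8591 and 9190 CPM in 3 [P] cells of the p53-/- line, and 9405 CPM in 1 [N] cell of the p53+/+ line against the 6 [P] cells listed above.

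From [P] to [B] the median log2 fold change was -1.11, with 53 of 55 genes below 0, against 0.02 over all genes. No member was called by edgeR, with 34 lower at an unadjusted p under 0.05 (3.23% of all genes), while DESeq2 called 13 lower (0.432% of genes). All 4 nucleotide supply genes and 5 of the 6 helicase activation genes were among the 34. GINS2 was at -1.70 (SE 0.30, adjusted p = 0.234 from edgeR), GMNN at -1.81 and TK1 at -1.45 (adjusted p = 0.248 for both), and RRM2 at -2.13 (SE 0.43, adjusted p = 0.354). POLD4 was at 59.2 and 70.4 CPM in the [P] sums and 87.2 and 114.1 CPM in the [B] sums. [B] versus [P] and [P] versus [N] share the [P] sums, in which the p53+/+ cells were far apart as given above. The median log2 fold change from [P] to [B] was -1.09 for p53+/+ sums and -1.05 for p53-/- sums. Taken over single cells, the p53+/+ medians of the summed level were close, 2800 CPM for [P] against 2683 CPM for [B]. The p53+/+ [P] sum includes the cells at 10534 and 12591 CPM. For p53-/- cells these medians were 6643 and 4277 CPM. Only p53-/- cells allow the step from [P] to [B] to be read within a prefix. In prefix 1118, 1 [B] cell was at 5085 CPM against 5023, 6309, 8891 and 10136 CPM in the 4 [P] cells. In prefix 1206, 1 [B] cell was at 5049 CPM against 3343, 4042, 4082 and 9756 CPM. The [B] cell stood within the range of the [P] cells both times. It was below their median of 7600 CPM in prefix 1118 and above their median of 4062 CPM in prefix 1206.

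Budded progeny stood above the budding cells of the same day. In [S] versus [B] the median log2 fold change was 0.88, with 53 of 55 genes above 0, against 0.01 over all genes. It was 0.81 between the p53+/+ sums and 1.02 between the p53-/- sums. No member was called by edgeR, with 32 higher at an unadjusted p under 0.05 (2.65% of all genes), while DESeq2 called 4 higher (0.149% of genes). GINS2 was at 1.63 (SE 0.30), RRM2 at 1.59 (SE 0.42), MCM4 at 1.34 (SE 0.28) and TK1 at 1.12 (SE 0.26), each with an adjusted p of 1.00 from edgeR. RPA2 and ORC4 differed little, at 0.09 (SE 0.27) and 0.08 (SE 0.29). POLD4 was at -0.68 (SE 0.44), and DNA2 at -0.16 (SE 0.51) was the other gene below 0.

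[B] and [S] cells of the same line share 11 name prefixes, which allows this step to be seen within a prefix. The median difference of the 55 genes was above 0 in 8 of 11. The 7 p53+/+ prefixes gave -1.10, 0.49, 0.50, 0.66, 1.22, 1.34 and 3.46. The value of 3.46 compares 1 [S] cell with 1 [B] cell of prefix 707, and the title of that [S] cell carries the letter G, as 17 of 36 [B] and none of the other [S] titles do. Without this prefix the median was above 0 in 7 of 10, with a highest value of 1.36. The 4 p53-/- prefixes gave -0.52, -0.12, 1.08 and 1.36, and the prefix at -0.52 stood lower still against the median of all its genes, 0.66. With line and prefix as a block, edgeR called 0 of 55 genes, the smallest adjusted p was 1.00, and the median was 0.83 with 52 of 55 genes above 0. Without prefix 707 the blocked median was 0.65, again with 52 of 55 above 0 and 0 called.

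**Figure D5:**
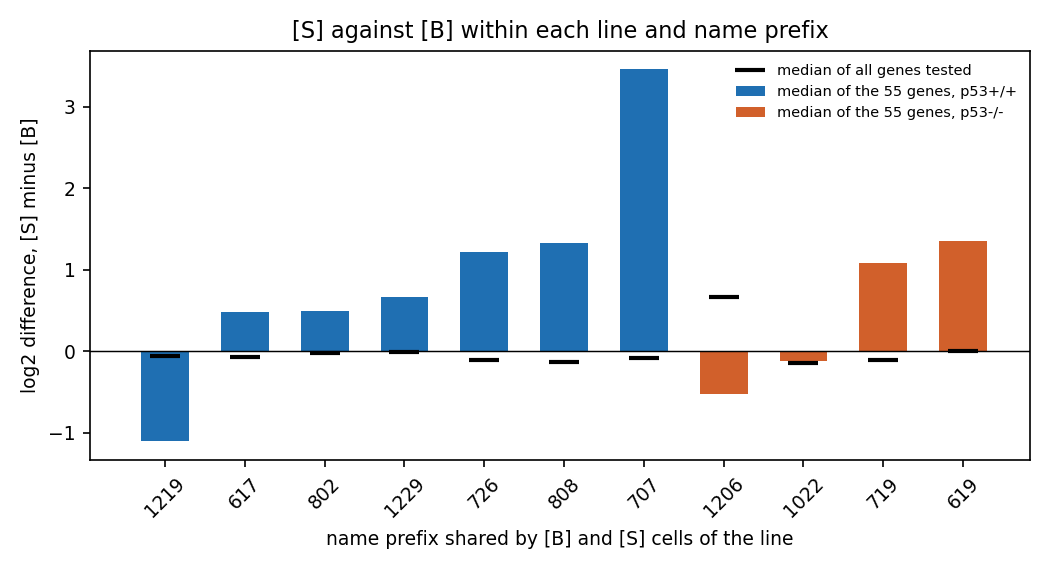
Log2 difference of [S] minus [B] (y axis), as the median over the 55 genes, within each name prefix (x axis) that holds [B] and [S] cells of a line, with p53+/+ in blue, p53-/- in orange and black ticks for the median of all genes. Bars stand above 0 in 8 of 11 prefixes, and no error bars are given since a prefix holds few cells.

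Progeny remained below [N] in most genes and repopulated cells stood near it. In [S] versus [N] the median was -0.69, with 50 of 55 genes below 0, against 0.15 over all genes. No member was called by edgeR, which had 24 lower (5.49% of all genes) and 1 higher (7.84%) when p was not adjusted (under 0.05), while DESeq2 called 9 lower (1.62% of genes) and 1 higher (3.39%). RFC5 was at -1.66 (SE 0.27, adjusted p = 0.104 from edgeR), and UHRF1 at -1.54, RFC3 at -1.28 and POLD4 at 1.93 had an adjusted p of 0.1998. POLE and POLE4 were nearest to their [N] level among the polymerase genes, and POLD1 was above it at 0.65.

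In [R] versus [S] the median was 0.56, with 45 of 55 genes above 0, against -0.08 over all genes. No member was called by edgeR, with 19 higher (6.11% of all genes) and 1 lower (9.01%) at p under 0.05 before adjustment, while DESeq2 called 6 higher (2.33% of genes). RFC5 was at 1.43 (SE 0.27, adjusted p = 0.0917 from edgeR), GINS1 at 1.44 (adjusted p = 0.133), UHRF1 at 1.41 (adjusted p = 0.135) and POLD3 at 1.39 (adjusted p = 0.153). In [R] versus [N] the median was -0.10 against 0.02 over all genes, with 38 of 55 genes below 0. No member was called by edgeR or DESeq2, and at an unadjusted p under 0.05 edgeR had 1 higher (4.47% of all genes), POLD1 at 1.04 (SE 0.37, adjusted p = 0.563), and 2 lower (4.13%), GINS2 at -0.78 and ORC5 at -0.93. POLD4 was at 0.76 (SE 0.44, adjusted p = 0.639), with sums of 36.5 and 20.6 CPM in [R] against 16.6 and 13.5 CPM in [N]. RRM2 was at 0.18 (SE 0.41), and 11 of 19 [R] cells stood above the highest [N] cell of their line.

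Between the lines, with the stage as a block, 44 of 55 genes were higher in the cells labelled p53-/-, and the median log2 difference (p53-/- minus p53+/+) was 0.27 against -0.005 over all genes. No member was called by edgeR, with 14 higher at an unadjusted p under 0.05 (6.91% of all genes), while DESeq2 called 8 higher (4.27% of genes). CDT1 was at 0.83 (SE 0.16, adjusted p = 0.0718 from edgeR), TIMELESS at 1.26 (SE 0.26, adjusted p = 0.0808) and CLSPN at 1.11 (SE 0.25, adjusted p = 0.0951). For CLSPN the p53-/- [B] sum includes the cell whose fork protection genes summed to 732.9 CPM. CDT1 sums were higher in the p53-/- line at every stage, with 43.3 against 63.5 CPM in [N], 35.7 against 77.2 in [P], 29.0 against 67.8 in [B], 53.3 against 91.998 in [S] and 44.4 against 90.1 in [R]. TIMELESS sums were 13.6 against 53.3 CPM in [B] and 24.9 against 115.7 CPM in [S]. PCNA was at -0.35 (SE 0.18, adjusted p = 0.462). Since each genotype is 1 line, genotype and other differences between the lines cannot be told apart.

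Across cells the genes varied together. The median Spearman correlation of the 1485 pairs was 0.60 over all cells, with 1423 pairs above 0. Within stages, where the difference between stages plays no part, it was 0.29 for [N] (13 cells), 0.58 for [P] (17), 0.48 for [B] (36), 0.48 for [S] (30) and 0.44 for [R] (19). These are descriptions, since genes of 1 cell share its library and depth and cells share lines and prefixes. The highest median correlation with the other members was 0.75 for CDC6, followed by 0.74 for MCM10, 0.73 for RRM2 and 0.73 for FEN1, and the lowest was -0.50 for POLD4, then 0.24 for POLE4 and 0.26 for ORC4. POLD4 correlated with the summed level of the other genes at -0.64 over all cells and at -0.48 for [N], -0.18 for [P], -0.58 for [B], -0.50 for [S] and -0.34 for [R].

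The summed level of the 55 genes followed MKI67, with a correlation of 0.76 over all cells and 0.60 for [N], 0.84 for [P], 0.79 for [B], 0.72 for [S] and 0.47 for [R]. Median MKI67 was 181 CPM in [N], 174 CPM in [P], 39.9 CPM in [B], 126 CPM in [S] and 178 CPM in [R]. With CDKN1A, which encodes the inhibitor p21, the summed level correlated at -0.49 over all cells, and at 0.12 for [N], -0.01 for [P], -0.29 for [B], -0.61 for [S] and -0.08 for [R]. All correlations of this paragraph take the cells of both lines together, so differences between the lines can enter them. With the total count of a cell the summed level correlated at 0.17 over all cells and at 0.46 for [N], 0.36 for [P], -0.19 for [B], 0.32 for [S] and -0.37 for [R]. With the number of genes detected it did so at -0.08 over all cells and at -0.09 for [N], 0.45 for [P], -0.04 for [B], -0.06 for [S] and -0.26 for [R].

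Many genes of DNA replication are known as targets of E2F factors, and the promoters of the members were read from RefSeq (GRCh38.p14), as windows from 250 bases before to 50 bases after a transcript start. Windows were given for 48 of the 55 genes, 65 windows in all. The E2F sites TTTCCCGC, TTTCGCGC, TTTGCCGC and TTTGGCGC were searched on both strands, and sites on opposite strands may overlap. At least 1 was found in 23 of the 48 genes (47.9%), against 1090 of 27305 genes in all (3.99%), and in 24 of 65 windows against 3.32% of all windows of this length. By group it was found in 8 of 13 licensing genes, 3 of 5 for helicase activation, 5 of 11 for polymerases and primase, 2 of 6 for clamp and loader, 1 of 3 for Okazaki fragment and single-strand binding, 2 of 3 for fork protection, 1 of 4 for nucleotide supply and 1 of 3 for chromatin behind the fork. It was found in 10 of the 19 genes with a window that fell in [B] versus [N] and in 13 of the other 29 members. A match is a run of letters and not a measured binding site.

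Stretches before the transcript start are shown for 7 genes that fell and hold a site, to let the sites be compared, and for POLD4, which rose and whose 2 windows hold none. The genes that fell and hold no site, among them RFC5, RRM2 and TK1, are not shown. Letters run 5′ to 3′ on the strand of the gene, and capitals mark the sites, which read GCGGGAAA where TTTCCCGC lies on the opposite strand.
MCM3, chr6:52284869-52284956, minus strand: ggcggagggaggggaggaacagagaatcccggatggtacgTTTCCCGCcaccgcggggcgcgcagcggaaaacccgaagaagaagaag
MCM6, chr2:135876548-135876635, minus strand: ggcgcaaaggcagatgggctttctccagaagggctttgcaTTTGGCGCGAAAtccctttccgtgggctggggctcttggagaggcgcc
GMNN, chr6:24775293-24775380, plus strand: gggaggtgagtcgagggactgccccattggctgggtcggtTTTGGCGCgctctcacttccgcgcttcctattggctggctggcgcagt
GINS2, chr16:85688955-85689025, minus strand: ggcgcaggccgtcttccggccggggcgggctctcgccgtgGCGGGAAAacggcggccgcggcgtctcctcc
RFC3, chr13:33818054-33818141, plus strand: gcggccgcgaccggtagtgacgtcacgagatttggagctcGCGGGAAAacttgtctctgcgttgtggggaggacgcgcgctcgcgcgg
TIPIN, chr15:66356704-66356791, minus strand: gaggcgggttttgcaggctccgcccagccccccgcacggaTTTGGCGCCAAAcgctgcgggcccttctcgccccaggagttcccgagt
UHRF1, chr19:4909447-4909500, plus strand: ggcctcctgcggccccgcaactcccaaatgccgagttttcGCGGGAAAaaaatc
POLD4, chr11:67353597-67353684, minus strand: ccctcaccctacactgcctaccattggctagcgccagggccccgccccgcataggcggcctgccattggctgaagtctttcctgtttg

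In MCM6 and TIPIN sites on opposite strands overlap, giving the 12 capitals TTTGGCGCGAAA and TTTGGCGCCAAA, and MCM6 holds this pair again 90 bases before the start, outside the stretch shown. The site shown begins 174 bases before the start in MCM3, 80 in GMNN, 31 in GINS2, 55 in RFC3, 66 in TIPIN and 14 in UHRF1. MCM3 holds another site, TTTCGCGC, 4 bases before the start, and UHRF1 has a window at another start with TTTCGCGC 160 bases before it. GMNN, TIPIN and UHRF1 each have a further listed start whose window holds no site, and which start the cells used was not measured here.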

How the data were processed

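RNA of single HCT116 cells was sequenced as full-length cDNA, and a table of raw counts per gene and cell was deposited by the authors. The submitters' processing notes name fastp, HISAT2 2.0, RSEM, Bowtie2, DESeq2 and the builds GRCh38 and mm10. The methods of the study add StringTie for estimating expression, and do not state which program wrote the counts. Deposited counts have no molecular identifiers, so reads are not independent molecules. The genes and lists were chosen with earlier results of these data known. CPM were computed per cell from the counts. For each of 10 sums the cells of 1 stage of 1 line were added up. Genes had to pass filterByExpr (minimum count 10) and to have counts in 12 cells or more. The fit used edgeR 4.0.16 (R 4.3.3, robust quasi-likelihood, TMM), with DESeq2 1.42.0 as an alternative. The lines pair the sums because both stages come from the same line, and how the lines deviate correlated between stages at 0.074 to 0.216 (6 of 10 pairs above 0.1). Named genes were the called members of a group or, where none was called, its 2 with the smallest p, and others were added after their values were seen. Alternatives were the line as a block, scaling by library size alone, genes with low counts kept, a minimum count of 100, cells thinned to 15435056 counts (12 shallower cells left out), sums per name prefix, and each sum left out. Leaving out 3 [N] cells by prefix, or 1 [S] cell by the letter in its title, was added after seeing the data. A check of the line labels and the alternative that rests on it are not reported here. The fits were tested on simulated data in which genes were changed in [B] only. In [B] versus [N] both tools recovered more of the larger changes than of the smaller ones. In [P] versus [N] no gene was changed, so any call there was false. DESeq2 made more false calls than edgeR in both comparisons. Promoters came from RefSeq, and transcript lengths from GENCODE.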

Additional observations from a re-analysis of the deposited data

Results flagged for a closer look

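In 90 groups of 4 to 10 cells, the summed level of each functional group and of 6 shown genes was searched for a cell far from the others, and 2 were found, where chance gives about 1 in 20 groups. In the 8 p53-/- [B] cells the highest fork protection sum was 732.9 CPM and the next was 194.8 CPM. In the 8 p53-/- [R] cells the highest POLD4 level was 57.7 CPM and the next was 22.5 CPM.

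Only genes named by rule in a stage comparison (those called, or the 2 with the smallest p of a group with no call) were searched for lines that went in opposite directions. This was so in 6 of 117 cases, against 63 of 385 over all members and the 7 stage comparisons, and whether the lines differ was not tested. These genes were picked by p, which rests on the spread between the lines, so that lines that agree were favored beforehand. The 117 cases are also part of the 385. CHAF1A in [R] versus [S] was at -0.61 in the p53+/+ and 0.90 in the p53-/- line, and TIMELESS in [R] versus [S] was at 1.10 and -0.36. CHAF1B was at -1.69 and 0.068 in [S] versus [N], and at -0.83 and 0.051 in [R] versus [N]. In [R] versus [N], UHRF1 was at -0.37 in the p53+/+ and 0.041 in the p53-/- line, and GINS1 at 1.07 and -0.034.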

How the results depend on the processing

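Cells thinned to equal totals, with the 12 shallowest left out, had median summed levels of 9171 CPM for [N], 6476 CPM for [P], 2838 CPM for [B], 4916 CPM for [S] and 9307 CPM for [R]. With 2 sums per stage p-values measure the spread between 2 lines. With a sum left out, the lone sum is assumed to vary like the others, and line and stage are mixed. Of 308 alternatives of counts and medians, 241 stayed within 1.5 times the count or within 1 SD between the lines or cells (0.2 for the line comparison), and of 1676 of single genes 1469 kept direction and call. A count of 0 in both fits was taken as unchanged, and only [B] versus [N] had called members in the main fit. The causes of the changes that did occur were not tested unless the setting itself removes cells or genes.

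With the line as a replicate block, 33 members were lower in [B] versus [N], and this pairing changed no other count of calls by over 1.5 times. DESeq2 called 1 member higher and 6 lower in [P] versus [N], 13 lower in [B] versus [P], 4 higher in [S] versus [B], 6 higher in [R] versus [S], 39 lower in [B] versus [N], 1 higher and 9 lower in [S] versus [N], and 8 higher between the lines. Shares of all genes for the block and DESeq2 calls are given above with each comparison. Without a filter on low counts there were 1 higher and 1 lower in [P] versus [N] (1.2% of all genes called in either direction), 11 lower in [B] versus [P] (0.549%), 2 higher in [S] versus [B] (0.292%), 3 higher in [R] versus [S] (2.07%), 33 lower in [B] versus [N] (3.76%), 1 higher and 2 lower in [S] versus [N] (1.55%), and 3 higher between the lines (1.22%).

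Library size as the only scaling moved the median of all genes by -0.13 to 0.18. The members' medians were then -0.40 for [P] versus [N], -1.14 for [B] versus [P], 0.71 for [S] versus [B], 0.73 in [R] versus [S], -1.46 in [B] versus [N] (8 members lower) and 0.054 in [R] versus [N], where UHRF1 was at 0.033. Relative to all genes, the median was -1.77 under both scalings in [B] versus [N] and -0.13 under both in [R] versus [N]. At a minimum count of 100 the medians were -1.07 in [B] versus [P] and -0.056 in [R] versus [N].

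With thinned cells the medians were -0.65 in [P] versus [N], -0.85 in [B] versus [P], -1.45 in [B] versus [N] and -0.016 in [R] versus [N], with UHRF1 at 0.076 there. Called were 0 members higher and 10 lower in [B] versus [N] (0.372% of all genes called in either direction), and 1 higher between the lines (1.11%). Sums per name prefix gave 3 members higher in [S] versus [B] (0.63% of all genes called in either direction). The medians were then -0.85 in [B] versus [P], -1.34 in [B] versus [N] and -0.060 in [R] versus [N], and CHAF1A was at -0.35 in [R] versus [S].

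Without the 3 [N] cells of prefix 1115, 0 members were higher and 6 lower in [B] versus [N] with a median of -1.47, and the median in [R] versus [N] was -0.017, with CHAF1B at 0.16 and UHRF1 at 0.29. Without the [S] cell titled with G, 0 members were called in [S] versus [B], [S] versus [N] or [R] versus [S], with medians of 0.83, -0.73 and 0.55, and the blocked median in [S] versus [B] without its prefix was 0.65.

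With 1 sum left out, 0 members were called in any comparison. The medians then ran from -0.63 to -0.48 for [P] versus [N], -1.24 to -0.91 for [B] versus [P], 0.52 to 1.00 for [S] versus [B], 0.40 to 0.75 in [R] versus [S], -1.75 to -1.30 in [B] versus [N], -0.91 to -0.50 in [S] versus [N], -0.26 to 0.019 in [R] versus [N], and 0.21 to 0.30 between the lines. Single genes ran from -0.14 to 2.33 for TIMELESS in [S] versus [B], below 0 without the p53-/- [S] sum, and from -0.59 to 1.42 in [R] versus [S], below 0 (-0.26 and -0.59) without the p53-/- [R] or the p53+/+ [S] sum. CHAF1A ran from -0.44 to 0.72 in [R] versus [S], CHAF1B from -1.66 to 0.0030 in [S] versus [N] and from -0.80 to 0.020 in [R] versus [N], and UHRF1 from -0.54 to 0.19 in [R] versus [N].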
